A study of Mus musculus with 8 samples.

Results

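Tetraspanins of platelets and leukocytes were examined in bulk RNA-Seq libraries of murine megakaryocytes (MKs), the marrow cells that release platelets. The genes were chosen by symbol as Cd9, Cd63, Cd151, Cd81, Cd82, Cd37, Cd53, Tspan32, Tspan33 and Tspan9, and all 10 were present among the 13387 genes of the count matrix. C57BL/6 MKs were cultured alone for 18 hours in 4 libraries (MK_only1 to MK_only4). C57BL/6 MKs were cultured for 18 hours together with C57BL/6 mesenchymal stem cells (MSCs, stromal cells of the marrow) in 4 further libraries (MK_MSC1 to MK_MSC4). The comparison addressed how the transcripts of MK cultures differ when MSCs are present. No library carried a transgene, a deletion or a drug. The labels give no age, and the methods give an age range and both sexes for the mice of the study as a whole. The MKs were not sorted but enriched from flushed marrow with CD41 magnetic beads and kept in thrombopoietin, whereas the MSCs were sorted as CD45-, Ter119-, CD31-, CD51+ and PDGFRα+ cells. Material from several wells was pooled for each library, and the labels name the sequenced cells as MKs where the methods name platelets made in culture.

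Tetraspanins are small membrane proteins that cross the membrane repeatedly and expose a small and a large loop outside the cell. They bind one another and partner proteins such as integrins, immunoglobulin-like proteins and membrane proteases, and so form clusters in the membrane. On platelets and MKs, CD9 lies at the surface, CD63 lies in granules and lysosomes until activation, and CD151 and TSPAN32 associate with the integrin αIIbβ3. CD37 and CD53 are restricted to blood cells, whereas CD81, CD82 and CD151 are made by many tissues.

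Totals ran from 4939874 to 12523616 counts per library, and 3 counts corresponded to 0.284 to 0.662 CPM (counts scaled by library total and TMM factor). Coculture replicate 3 stood apart from the other libraries. It held 10735 genes with a count against 12406 to 13193 in the others, and 1012 genes were at 0 in it that had at least 10 counts in every other library. The 16 MK and platelet markers summed to 1988 to 2304 CPM in MKs alone and to 1796 to 2443 CPM in cocultures, and 0 of the 16 passed the test. Pf4, a platelet chemokine and the highest of them, had a mean of 841 CPM in MKs alone and 1070 CPM in cocultures. The MK label was therefore met in both groups, but markers of other cells were present too. The 11 neutrophil markers summed to 84606 to 86382 CPM in MKs alone and to 4303 to 10218 CPM in cocultures. MSC markers summed to 14.6 to 22.8 CPM in MKs alone and to 1155 to 3822 CPM in cocultures, and macrophage markers to 158 to 236 CPM and 1051 to 2106 CPM. No marker on any list was at 0 in every library of a group. In bulk libraries, fewer cells of a type and less RNA per cell cannot be told apart.

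**Figure D1:**
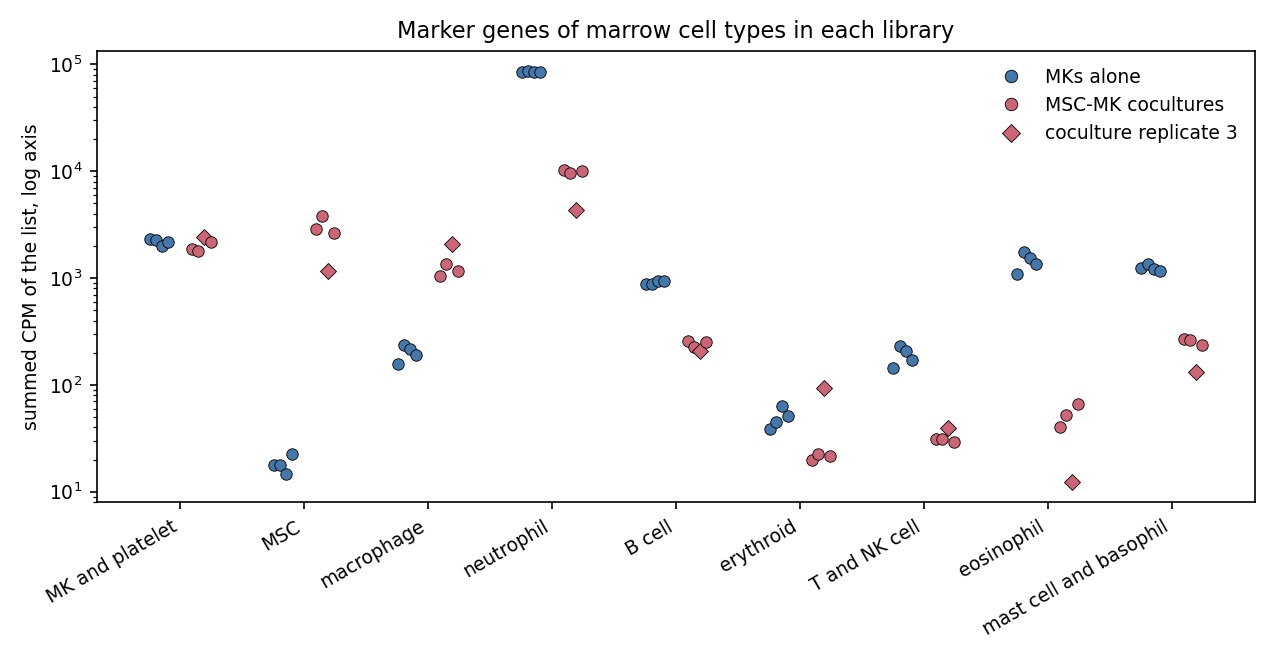
Summed CPM (log axis) of marker genes for 9 cell types in each library, with MKs alone in blue, MSC-MK cocultures in red and coculture replicate 3 as a diamond. The MK and platelet sums overlap between groups, the neutrophil, eosinophil, B cell, T and NK cell, and mast cell and basophil sums are lower in every coculture, and the MSC and macrophage sums are higher in every coculture.

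The tetraspanins moved in both directions. Cd81 and Cd151 were higher in MSC-MK cocultures, Cd53, Cd37 and Tspan32 were lower, and Cd9, Cd63, Cd82, Tspan33 and Tspan9 did not pass the test. A gene was called where it changed at least 2-fold with an adjusted p of at most 0.05 (edgeR's quasi-likelihood test with Benjamini-Hochberg adjustment over 11722 genes) and had a mean of at least 1 CPM in a group. All 10 tetraspanins had enough counts to be tested. By this rule 13.2% of all genes tested were called higher, 7.31% lower and 20.5% either way, against 2, 3 and 5 of the 10 tetraspanins. The median log2 fold change of the 10 was -0.65, and that of all genes tested was 0.034. The 2 groups did not overlap for 6 of the 10, with 2 higher and 4 lower in every coculture, and 40.3% of all genes tested did not overlap (19.3% higher and 21.1% lower). Without coculture replicate 3, 3 tetraspanins were called higher and 4 lower, where 20.6% of genes were called higher, 15.4% lower and 36.0% either way. With DESeq2 on all 8 libraries 2 were called higher and 4 lower, where 15.8% of genes were called higher, 10.7% lower and 26.6% either way.

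**Figure D2:**
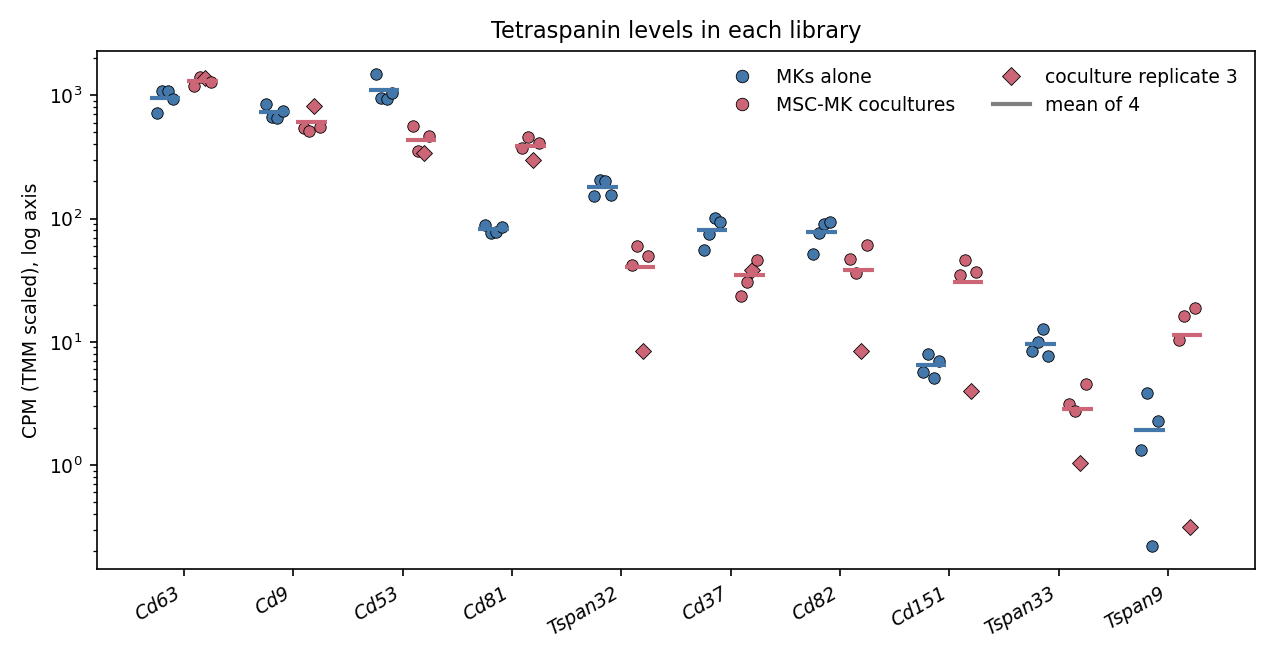
CPM (log axis) of the 10 tetraspanins in each of 4 libraries of MKs alone (blue) and 4 MSC-MK cocultures (red, with replicate 3 as a diamond), with horizontal lines at the means. Cd81 lies between 298 and 460 CPM in the cocultures and between 76.6 and 89.2 CPM in MKs alone, whereas Cd151, Cd82, Tspan32 and Tspan9 are far below the other cocultures in replicate 3.

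The promoters of the 5 called genes are shown because these genes passed the test. Each window runs 5′ to 3′ on the gene's strand, from 250 bases before to 50 bases after the RefSeq start (GRCm38.p6). Capitals mark GAGGAA, an ETS core of the kind bound by the blood cell factor PU.1, and GGGCGG, the core of a GC box, on either strand.
Cd81 (chr7:143052500-143052799, plus strand): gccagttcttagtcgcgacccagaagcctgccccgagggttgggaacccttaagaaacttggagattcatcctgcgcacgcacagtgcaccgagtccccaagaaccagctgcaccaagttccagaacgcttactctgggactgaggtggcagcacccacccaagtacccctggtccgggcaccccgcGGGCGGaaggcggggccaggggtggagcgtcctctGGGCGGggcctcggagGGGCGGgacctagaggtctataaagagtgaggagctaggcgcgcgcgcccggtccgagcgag
Cd151 (chr7:141467112-141467411, plus strand): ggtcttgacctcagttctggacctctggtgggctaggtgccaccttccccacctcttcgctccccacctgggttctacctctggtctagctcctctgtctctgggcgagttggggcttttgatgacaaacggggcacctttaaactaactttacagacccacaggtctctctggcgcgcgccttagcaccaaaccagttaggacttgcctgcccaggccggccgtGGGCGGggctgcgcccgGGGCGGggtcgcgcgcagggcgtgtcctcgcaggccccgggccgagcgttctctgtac
Cd53 (chr3:106790100-106790399, minus strand): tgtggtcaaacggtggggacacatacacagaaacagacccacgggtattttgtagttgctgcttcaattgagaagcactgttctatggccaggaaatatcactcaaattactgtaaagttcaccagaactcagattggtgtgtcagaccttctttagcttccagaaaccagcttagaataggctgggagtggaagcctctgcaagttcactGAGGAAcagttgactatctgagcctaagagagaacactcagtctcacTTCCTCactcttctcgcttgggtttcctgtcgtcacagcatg
Cd37 (chr7:45238790-45239089, minus strand): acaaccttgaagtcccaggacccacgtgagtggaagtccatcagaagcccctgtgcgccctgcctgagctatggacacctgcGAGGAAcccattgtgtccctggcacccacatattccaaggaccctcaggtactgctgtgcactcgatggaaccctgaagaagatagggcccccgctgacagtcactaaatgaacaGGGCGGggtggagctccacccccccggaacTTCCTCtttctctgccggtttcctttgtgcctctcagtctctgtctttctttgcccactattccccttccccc
Tspan32 (chr7:143004796-143005095, plus strand): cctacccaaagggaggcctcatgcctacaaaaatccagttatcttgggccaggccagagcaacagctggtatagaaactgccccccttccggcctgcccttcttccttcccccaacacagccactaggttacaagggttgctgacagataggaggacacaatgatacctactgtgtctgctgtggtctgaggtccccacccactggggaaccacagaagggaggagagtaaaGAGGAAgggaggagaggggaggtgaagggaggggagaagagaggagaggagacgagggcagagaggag
GGGCGG was found 3 times in the Cd81 window, 2 times in that of Cd151 and 1 time in that of Cd37, and 35.7% of 32851 windows of the same length held it. GAGGAA was found 2 times each in the Cd53 and Cd37 windows and 1 time in that of Tspan32, and 28.3% of windows held it. AGATAA, the core motif of the GATA family, was found 1 time in the Tspan32 window (11.2% of windows). TGTGGT, a RUNX core, was found 1 time in the Cd53 window and 2 times in that of Tspan32 (16.8% of windows). Neither of these last motifs is capitalised. The GC content was 65.7% for Cd81 and 64.3% for Cd151, against 46.3% for Cd53, 57.7% for Cd37 and 56.7% for Tspan32, with a median of 52.7% over all windows. Of the genes without a call, Tspan33, lower in every coculture, had 2 GGGCGG, 0 GAGGAA and a GC content of 65.0%, and Cd63, higher in every coculture, had 2 GAGGAA, 0 GGGCGG and 49.3%. The Cd63 window (chr10:128909095-128909394, plus strand) lies inside the gene as GENCODE annotates it, from 128900989 to 128912822. The Cd37 window (45238790 to 45239089) also lies inside its gene, from 45233632 to 45239115 on the minus strand. Both windows may therefore miss the start used in these cells. A match is a run of letters and was not tested as a binding site.

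The platelet tetraspanins Cd9 and Cd63 had the smallest fold changes of the 10. Cd9 encodes a major platelet surface protein, also known for its part in membrane fusion, and lies on chromosome 6 (125460266 to 125494791, minus strand, GRCm38). Its level was 853, 661, 650 and 746 CPM in the 4 libraries of MKs alone and 539, 515, 814 and 556 CPM in cocultures 1 to 4. Coculture replicate 3 lay within the range of MKs alone and the other 3 cocultures lay below it, so the groups overlapped. The log2 fold change was -0.26 ± 0.21 (SE, n = 4 per group; edgeR adjusted p = 0.396). Without coculture replicate 3 it was -0.46 (edgeR adjusted p = 0.0309), still under 2-fold. Cd63, whose protein reaches the platelet surface when granules are released, measured 723, 1079, 1086 and 924 CPM in MKs alone and 1198, 1399, 1370 and 1272 CPM in cocultures. Every coculture was above every library of MKs alone, but the difference was small. Its log2 fold change was 0.46 ± 0.19 (SE, n = 4 per group; edgeR adjusted p = 0.113).

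The ratio of Cd9 to Cd63 counts put both genes on one scale within a library. It was 1.18, 0.613, 0.599 and 0.807 in MKs alone and 0.450, 0.368, 0.594 and 0.437 in cocultures. All 4 cocultures lay below all 4 libraries of MKs alone, although coculture replicate 3 was close to MK_only3.

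Cd151, whose protein binds laminin-binding integrins and associates with αIIbβ3, was called higher. It measured 5.74, 7.94, 5.10 and 7.0 CPM in MKs alone and 35.1, 45.7, 3.98 and 36.9 CPM in cocultures. Cocultures 1, 2 and 4 were far above MKs alone and coculture replicate 3 was below them all, so the groups overlapped. The log2 fold change was 2.24 ± 0.67 (SE, n = 4 per group; edgeR adjusted p = 0.0419). The call was lost when any of the other 7 libraries (MK_only1 to MK_only4, MK_MSC1, MK_MSC2 or MK_MSC4) was left out, with edgeR adjusted p values of 0.0830 to 0.111. It was kept without coculture replicate 3, at a log2 fold change of 2.58.

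Tspan9, whose protein is found with the collagen receptor glycoprotein VI on platelets, had the fewest counts of the 10. It measured 1.32, 3.81, 0.222 and 2.28 CPM in MKs alone and 10.4, 16.3, 0.314 and 18.7 CPM in cocultures. The values of MK_only3 and coculture replicate 3 rested on 2 and 3 counts, and the latter lay within the range of MKs alone. Its log2 fold change was 2.56 ± 1.15 (SE, n = 4 per group; edgeR adjusted p = 0.143). Without coculture replicate 3 it was called higher (log2 fold change 2.92, edgeR adjusted p = 0.000133).

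Tspan32, made by blood cells and known for limiting T cell proliferation and for a part in platelet integrin signalling, was called lower. It measured 152, 205, 203 and 154 CPM in MKs alone and 42.2, 59.9, 8.37 and 49.8 CPM in cocultures. Every coculture was below every library of MKs alone, and replicate 3 was the lowest. It fell by 2.16 ± 0.51 on the log2 scale (SE, n = 4 per group; edgeR adjusted p = 0.0163). The call was kept when any of the 8 libraries was left out but not with the replicate number as a block (edgeR adjusted p = 0.0582).

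Cd81 had the smallest standard error among the 5 called genes. Its protein takes part in B cell signalling and is made by most nucleated cells. It measured 89.2, 76.6, 77.5 and 85.7 CPM in MKs alone and 375, 460, 298 and 412 CPM in cocultures. Every coculture, replicate 3 included, was far above every library of MKs alone. The mean rose from 82.2 ± 6.18 CPM to 386 ± 68.5 CPM (SD, n = 4), a log2 fold change of 2.23 ± 0.19 (SE; edgeR adjusted p = 8.96e-05). Among the 8 values obtained by leaving out a library, the log2 fold change ran from 2.18 to 2.32, and the call was kept in each.

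Cd82, a broadly made tetraspanin also known as a suppressor of metastasis, measured 51.4, 75.8, 89.8 and 93.5 CPM in MKs alone and 46.5, 36.2, 8.37 and 60.7 CPM in cocultures. The groups overlapped through MK_only1 and coculture replicate 4. Its log2 fold change was -1.03 ± 0.52 (SE, n = 4 per group; edgeR adjusted p = 0.189). Without coculture replicate 3 it was -0.73 (edgeR adjusted p = 0.0134), which is under 2-fold.

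MSC and macrophage markers were also higher in cocultures. Of 7 MSC markers tested 6 were called higher, with a median log2 fold change of 8.68. Sparc, a matrix protein and the highest of them, had a mean of 0.548 CPM in MKs alone and 963 CPM in cocultures. The summed MSC markers were lowest in coculture replicate 3, at 1155 CPM against 2660 to 3822 CPM in the other cocultures, as Cd151, Tspan9 and Cd81 were. Cd63 was not, at 1370 CPM in that library within a coculture range of 1198 to 1399 CPM. Of 10 macrophage markers tested 9 were called higher (median log2 fold change 3.97), and Csf1r, the receptor of a macrophage growth factor, had means of 105 and 263 CPM. The summed macrophage markers were highest in coculture replicate 3, at 2106 CPM, but single markers went both ways there. Cd14 was at 712 CPM in that library and at 128 to 197 CPM in the other cocultures. Csf1r was instead at 151 CPM in it and at 261 to 329 CPM in the other cocultures. The part of these cells in the higher tetraspanins was not tested.

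The leukocyte tetraspanins Cd53 and Cd37 both fell. Cd53 encodes a protein of nearly all white blood cells that helps to hold CD45 at their surface, and it was the highest leukocyte tetraspanin of the 10. It measured 1478, 943, 928 and 1047 CPM in MKs alone and 562, 350, 339 and 471 CPM in cocultures. Every coculture was below every library of MKs alone, and replicate 3 was close to replicate 2. The mean fell from 1099 ± 258 CPM to 430 ± 106 CPM (SD, n = 4), a log2 fold change of -1.35 ± 0.25 (SE; edgeR adjusted p = 0.00467), and the call was kept when any of the 8 libraries was left out. Cd37, most abundant in B cells and needed for their integrin signals, measured 56.1, 74.9, 101 and 92.9 CPM in MKs alone and 23.5, 30.6, 38.5 and 45.8 CPM in cocultures. The groups did not overlap, and MK_only1 was the closest to the cocultures. Its log2 fold change was -1.23 ± 0.30 (SE, n = 4 per group; edgeR adjusted p = 0.0178). The call was lost without MK_only2, MK_only3, MK_only4 or MK_MSC2, with edgeR adjusted p values of 0.0534 to 0.0627.

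Tspan33, known from B cells and erythroid cells as a carrier of the membrane protease ADAM10, measured 8.39, 10, 12.6 and 7.65 CPM in MKs alone and 3.13, 2.74, 1.05 and 4.51 CPM in cocultures. Every coculture was below every library of MKs alone. Its log2 fold change was -1.76 ± 0.59 (SE, n = 4 per group; edgeR adjusted p = 0.0593). It was called lower without coculture replicate 3 (log2 fold change -1.53, edgeR adjusted p = 0.00110) and with DESeq2 on all libraries (-1.81).

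Markers of several white blood cells were lower in the same cocultures. All 11 neutrophil markers were called lower (median log2 fold change -3.43), led by S100a8, a calcium-binding protein of neutrophil cytosol, with means of 48457 and 4404 CPM. Of 9 B cell markers 3 were called lower (median -1.31), and their sums ran from 887 to 941 CPM in MKs alone and from 206 to 259 CPM in cocultures. The B cell surface protein gene Ms4a1 had means of 381 and 53.8 CPM. Of 8 eosinophil markers 7 were called lower (median -4.83), from sums of 1084 to 1738 CPM to 12.3 to 66.6 CPM, with Prg2, a granule protein, at means of 1035 and 27.1 CPM. Of 6 mast cell and basophil markers 4 were called lower (median -2.84), from 1164 to 1368 CPM to 133 to 271 CPM, with the protease gene Cpa3 at 396 and 20.7 CPM. Of 5 T and NK cell markers tested 3 were called lower (median -2.49), from 143 to 231 CPM to 29.5 to 39.1 CPM, with Nkg7 at 152 and 16.6 CPM. The part of these cells in the lower tetraspanins was not tested. Of 5 erythroid markers tested 0 passed edgeR's test, and their sums ran from 38.8 to 62.8 CPM in MKs alone and from 19.6 to 93.8 CPM in cocultures, the highest in replicate 3.

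**Figure D3:**
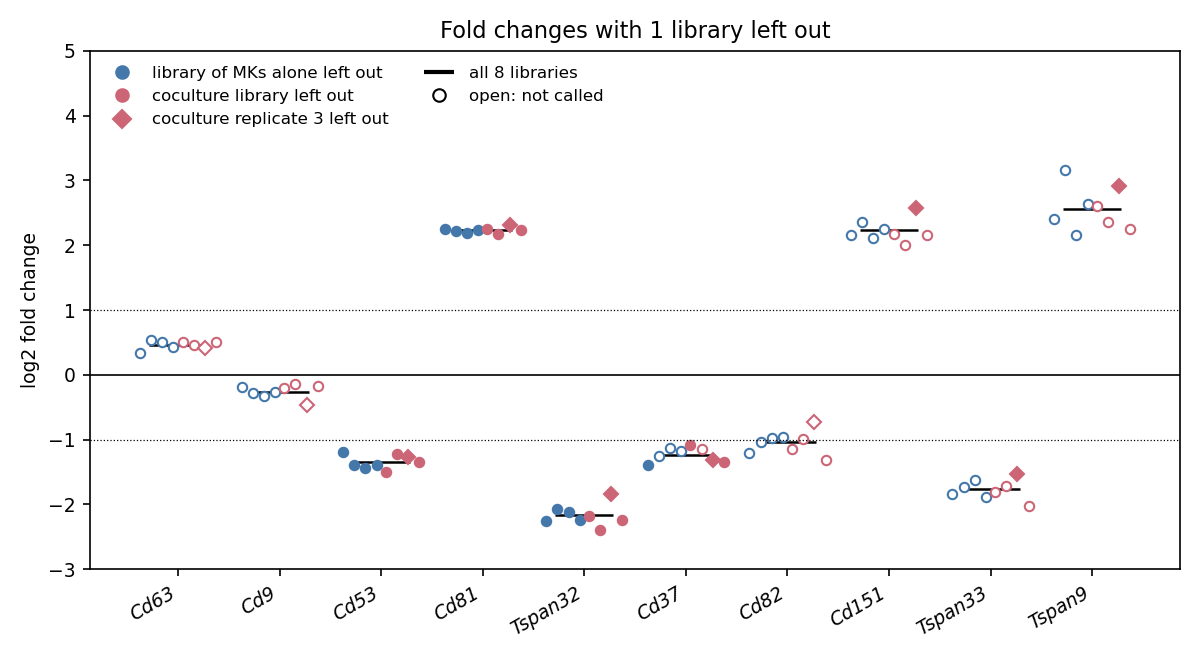
Log2 fold changes of the 10 tetraspanins, cocultures against MKs alone, with all 8 libraries (black line) and with each library left out in turn (blue, MKs alone; red, cocultures; diamond, coculture replicate 3). Open symbols were not called, and dotted lines mark 2-fold changes. Cd81, Cd53 and Tspan32 stay filled throughout, and Tspan33 and Tspan9 are filled only without coculture replicate 3.

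To compare levels between genes, CPM were divided by the median length of the coding transcripts (CPM per kb). In MKs alone Cd63 stood at 896 ± 160, Cd53 at 631 ± 148 and Cd9 at 593 ± 76.4 CPM per kb (SD, n = 4), and neighbours in this order overlapped in range. Tspan32 followed at 119 ± 19.7 CPM per kb, below the range of Cd9 and above that of Cd37 (64.1 ± 15.8). Cd37 and Cd81 (53.7 ± 4.03) overlapped, as did Cd81 and Cd82 (46.5 ± 11.4). Tspan33 at 4.87 ± 1.11 and Cd151 at 3.77 ± 0.743 CPM per kb overlapped in range, and Tspan9 was lowest at 0.739 ± 0.589.

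In cocultures Cd81 was among the 4 highest in place of Tspan32. Cd63 stood at 1232 ± 86.5 CPM per kb, above the range of Cd9 (494 ± 114), and Cd9 above that of Cd81 (252 ± 44.7). Cd81 and Cd53 (247 ± 60.8) overlapped, and Cd81 was the higher of them in 1 of 4 cocultures. Cd37 (27.3 ± 7.61), Tspan32 (26.7 ± 14.9), Cd82 (22.7 ± 13.3), Cd151 (17.8 ± 10.7), Tspan9 (4.43 ± 3.17) and Tspan33 (1.44 ± 0.718) followed, each overlapping the next in range.

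Cd63, Cd9 and Cd53 together made up 87.9% ± 1.62 of the summed CPM per kb of the 10 genes in MKs alone and 84.8% ± 3.61 in cocultures (SD, n = 4). Within this total the share of Cd63 was 37.2% ± 6.97 in MKs alone and 52.9% ± 2.44 in cocultures, that of Cd53 was 26.1% ± 5.72 and 10.7% ± 2.94, and that of Cd81 was 2.22% ± 0.155 and 10.8% ± 1.95. The share of Cd9 was 24.5% ± 2.90 and 21.2% ± 4.49. A share can move through the other genes in the sum.

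**Figure D4:**
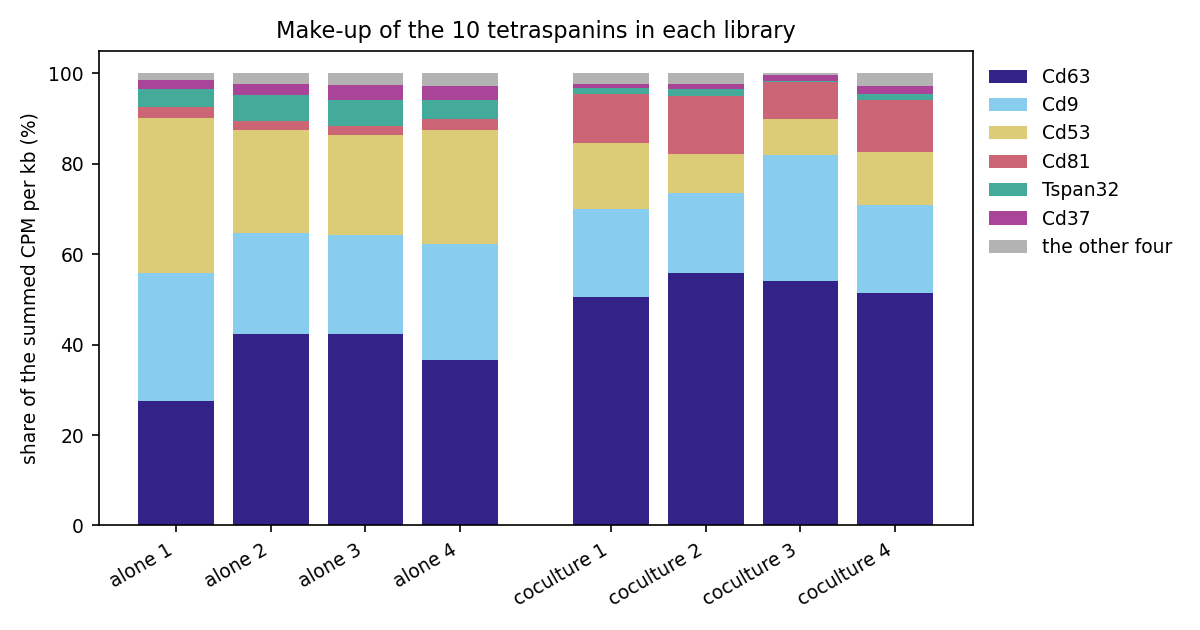
Share (percent) of each tetraspanin in the summed CPM per kb of the 10 genes, as stacked bars for 4 libraries of MKs alone and 4 cocultures, with Cd82, Cd151, Tspan33 and Tspan9 in grey. Cd63 takes 27.6 to 42.3% in MKs alone and 50.5 to 55.8% in cocultures, and Cd81 takes at most 2.36% in MKs alone and at least 8.15% in cocultures.

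The leukocyte gene Cd53, which fell, and the broadly made gene Cd81, which rose, were set against each other as a ratio of counts, which needs no scaling between libraries. Cd53 counts over Cd81 counts were 16.6, 12.3, 12.0 and 12.2 in MKs alone and 1.5, 0.760, 1.14 and 1.14 in cocultures. Coculture replicate 3 lay among the other cocultures in this ratio. Cd63 counts over Cd53 counts were 0.489, 1.14, 1.17 and 0.883 in MKs alone and 2.13, 4.0, 4.04 and 2.70 in cocultures. Cd63 and Cd81 were higher and Cd53 was lower in every coculture. The lack of overlap in both ratios therefore follows from the values above and is not a further result.

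Other tetraspanin genes were listed to place the 10 within their family. Of 21 others 17 were in the matrix and 12 had enough counts to be tested. Of these 12, 5 were called higher and 2 lower, against 13.2% and 7.31% of all genes, and their median log2 fold change was 0.90. Tspan17 was at 0.662 to 1.79 CPM in MKs alone and at 34.1, 40.2, 69.5 and 35.9 CPM in cocultures (log2 fold change 5.04, edgeR adjusted p = 1.38e-04), so replicate 3 was its highest library. Tspan6 was at 8.45 to 17.9 CPM and at 169, 155, 57.4 and 123 CPM (log2 fold change 3.42). Tspan4, whose protein is a marker of migrasomes (vesicles left behind by moving cells), was at 58.3 to 83.5 CPM and at 173, 238, 299 and 248 CPM (log2 fold change 1.74). Tspan3 (1.77) and Tspan31 (1.25) were also called higher, and Tspan13 (-1.55) and Tspan14 (-1.28) lower, all 4 without overlap between the groups. The call of Tspan14 was lost when counts were scaled by library size only (edgeR adjusted p = 0.0502). Tspan2, Tspan5, Tspan8, Tspan12 and Rom1 were not called. The 10 genes made up 86.8% ± 1.08 of the summed CPM per kb of all tetraspanins in MKs alone and 77.7% ± 2.43 in cocultures (SD, n = 4).

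**Figure D5:**
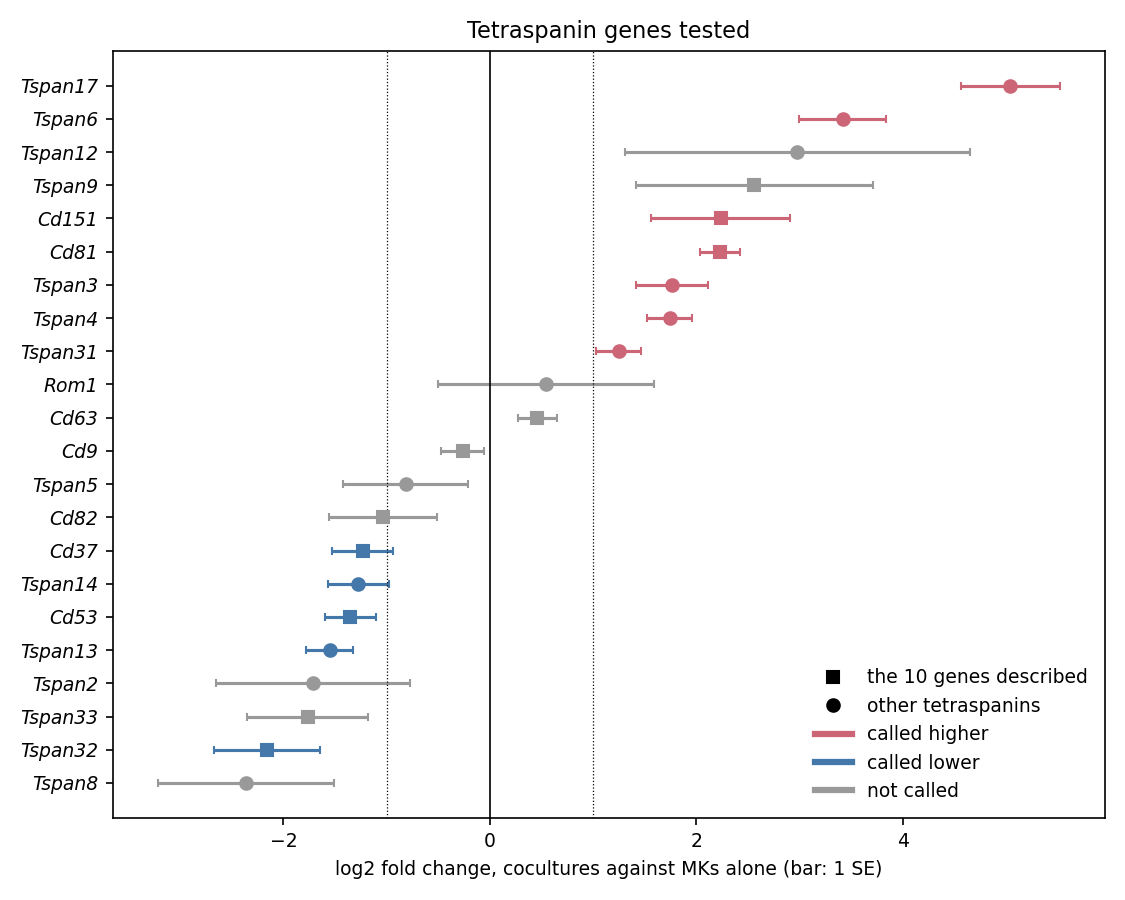
Log2 fold change (point) and standard error (bar) of the 22 tetraspanin genes tested, cocultures against MKs alone, with the 10 genes described as squares and the others as circles. Red marks genes called higher, blue genes called lower and grey genes not called, and dotted lines mark 2-fold changes. The range runs from Tspan8 (-2.36) to Tspan17 (5.04).

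The TspanC8 subgroup carries ADAM10, which sheds surface proteins, to the membrane, and its members split. Tspan14 was at 117, 135, 139 and 136 CPM in MKs alone and at 60.4, 68.9, 26.6 and 61.6 CPM in cocultures, whereas Tspan17 was higher in cocultures. Tspan33 and Tspan5 (log2 fold change -0.82) were not called, and Tspan15 had too few counts to be tested. Adam10 itself measured 668, 427, 382 and 506 CPM in MKs alone and 356, 259, 324 and 235 CPM in cocultures. The groups did not overlap, but the log2 fold change of -0.75 (edgeR adjusted p = 0.0468) was under 2-fold, so it was not called.

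Of 28 partner proteins of tetraspanins 27 were in the matrix and 26 were tested. Of these 6 were called higher and 5 lower, against 13.2% and 7.31% of all genes, and the median log2 fold change was -0.67. The groups did not overlap for 5 higher and 11 lower partners, against 19.3% and 21.1% of all genes. Among partners of CD9, CD81 and CD151, Igsf8, which encodes an immunoglobulin-like protein bound by CD9 and CD81, was at 5.74 to 11.9 CPM in MKs alone and at 31.1, 48.2, 51.1 and 55.7 CPM in cocultures (log2 fold change 2.42, edgeR adjusted p = 0.00165). Itgb1, the integrin β1 chain that pairs with CD151-bound α chains, was at 274 to 394 CPM and at 1396, 1380, 544 and 1163 CPM (log2 fold change 1.76). The α chain gene Itga6 was lower in every coculture but not called (log2 fold change -1.05, edgeR adjusted p = 0.0853). It was at 85.0 to 140 CPM in MKs alone and at 19.3 to 68.4 CPM in cocultures. Itga3, another α chain gene, had too few counts to be tested and was higher in every coculture. Replicate 3 was the lowest coculture for Itgb1 and within the other cocultures for Igsf8. Itga7 (4.52), Hbegf (2.83) and Pi4k2a (1.24) were called higher too. Itga7 was at 42.1 CPM in coculture replicate 3 and at most 3.39 CPM elsewhere, and its log2 fold change was 2.47 without that library. Hbegf, a growth factor bound by CD9, overlapped between the groups at 8.37 CPM in that library. Timp1, a protease inhibitor that binds CD63, had 3 counts in all MKs alone and 11763 in all cocultures, a ratio of scaled counts of 3436 (exact 95% interval 1175 to 16663, counting error only).

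Partners of the leukocyte tetraspanins were among the 5 called lower. Ptprc, which encodes CD45, measured 1202, 698, 646 and 836 CPM in MKs alone and 299, 164, 14.9 and 230 CPM in cocultures (log2 fold change -2.26, edgeR adjusted p = 0.0492). It was below MKs alone in every coculture, and replicate 3 was far below the others. Ifitm1 (-2.59), whose protein associates with CD81, Itga4 (-1.46), Ptpn6 (-1.36) and Kit (-3.62) were the other 4. Of the partners of platelet tetraspanins, Itga2b (-0.39), Itgb3 (-1.20) and Gp6 (-1.64) were not called. Itgb3 was still lower in every coculture, at 349 to 450 CPM in MKs alone and 35.6 to 226 CPM in cocultures. The groups overlapped for Itga2b and Gp6. The calls of Ptprc and Ifitm1 were lost when any library other than coculture replicate 3 was left out and with scaling by library size only or to MK and platelet markers, and that of Itga7 when any library of MKs alone was left out. DESeq2 gave no adjusted p for Itga7. The call was also lost for Hbegf without MK_only2, MK_only3, MK_only4, MK_MSC1, MK_MSC2 or MK_MSC4, and for Itga4 without MK_only1, MK_only2, MK_MSC1, MK_MSC2 or MK_MSC4. Leaving out MK_only2 ended the calls of Ptpn6 and Pi4k2a, and leaving out MK_only4 ended that of Pi4k2a.

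The genes nearest to each tetraspanin in profile were sought over the 8 libraries, by the root mean square difference of log2(CPM + 1) centred on its mean. For Cd53 these were Rab32 (0.0863) and Skil (0.0895), for Cd37 Grina (0.0837) and Gmip (0.150), and for Tspan32 Pik3ip1 (0.181) and Traf3ip3 (0.190). For Cd81 they were Slc2a1 (0.150) and Mtap (0.153), for Cd63 Tmed9 (0.109) and Gm16286 (0.114), for Tspan33 Osbpl2 (0.159) and Acsl1 (0.169), and for Cd151 Hhat (0.222) and 5730507C01Rik (0.232). A smaller value is a closer match, and the match rests on the difference between the groups as well as on the spread within them.

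Of the 10 genes 4 lie on chromosome 7, and these include genes of both directions. Tspan32 (chr7:143005046-143019644, plus strand, GRCm38) ends 33.1 kb before Cd81 (chr7:143052739-143067934, plus strand) begins, and Tspan32 was lower and Cd81 higher in cocultures. Cd151 (chr7:141467392-141471473, plus strand) ends 3.77 kb before Tspan4 begins, and both were called higher. Cd37 (chr7:45233632-45239115, minus strand) shares its last 13 bases with the opposite gene Tead2, which was at 1.32 to 2.0 CPM in MKs alone and at 14.5 to 18.1 CPM in cocultures. Cd53 lies on chromosome 3 (106759921 to 106790149, minus strand). Cd9, Cd82, Cd151, Tspan32, Cd81 and Tspan9 also overlap annotated noncoding or predicted genes without a row in the matrix, and because the use of strand is not stated, reads from overlapping genes cannot be told apart.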

How the data were processed

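Bulk RNA-Seq was performed on material from cultures of MKs alone (4 libraries) or with MSCs (4 libraries). The labels name this material as MKs and the methods as platelets made in culture. The deposited values are raw gene counts in whole numbers. The methods name SMART-Seq HT libraries (paired-end), fastp for read filtering, and kallisto with mm10 transcripts. How counts were summed over transcripts and whether strand was used is not given in the sources used here. The paper counts mice as replicates and the labels do not, so p-values measure the spread between these libraries. Reads carry no molecular identifiers, and floors and intervals cover counting error only.

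All 8 libraries entered 1 edgeR 4.0.16 fit (R 4.3.3) without covariates, with filterByExpr, TMM factors and robust quasi-likelihood tests. The paper used DESeq2 with a batch term, but the labels name no batches, so none was fitted. CPM use TMM-scaled totals. A call needed a 2-fold change, a Benjamini-Hochberg value no higher than 0.05, and 1 CPM or more as the mean of either group. The scripts were checked on simulated counts. Alternatives were RLE factors, library size only, scaling to MK and platelet markers, DESeq2 1.42.0, no filter, at least 10 counts in 4 libraries, a replicate block, and each library left out. Dividing by the exon union length was added after seeing the data. GENCODE vM21 (GRCm38, equivalent to mm10) gave transcript lengths, and RefSeq GRCm38.p6 gave promoters, where 10 of 10 genes matched. Protein sequences were not analysed here. Some listed genes are not reported here and were left out of the lists.

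The members and the lists of other tetraspanins, partners and markers were chosen with earlier results of these data known. Besides the 10 genes, the text names called tetraspanins and partners, the highest gene of each marker list and, for each tetraspanin called or without overlap, the 2 nearest profiles outside the family. Uncalled tetraspanins and partners, Tead2 and Cd14 were named after their values were seen.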

Additional observations from a re-analysis of the deposited data

Results flagged for a closer look

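In groups of 4 libraries, the highest or lowest library was set against Dixon's critical value for its gap to the others. A library passed it in 11 of 74 groups, and coculture replicate 3 was that library in 8 of these. For independent, normally distributed values chance gives about 1 group in 20, or 3.7 of 74. The groups come from the same 8 libraries and are not independent, so the 11 cannot be tested against this number. Values are log2(CPM + 1). Among the 10 tetraspanins, coculture replicate 3 stood above the other cocultures for Cd9 (9.67) and below them for Cd151 (2.32). It stood below the other cocultures for Tspan14 (4.79), Ifitm1 (1.17) and Kit (0.96), and above them for Itga7 (5.43). The summed neutrophil markers were low in it (12.07) and the summed erythroid markers high (6.57). MK_only1 stood above the other MKs alone for Itga4 (7.22) and below them for Tspan14 (6.88). Timp1 was at 0.39 in MK_only2 and at 0 in the other MKs alone, so this flag rests on 3 counts. The Itga4, Itga7 and Ifitm1 calls changed when single libraries were left out, whereas that of Kit did not.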

How the results depend on the processing

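Cd81 and Cd53 kept their call under every alternative run. None of the 10 tetraspanins changed direction, nor did any called gene of the other lists. With each library left out, members called higher ran from 1 to 3 and lower from 2 to 4, Cd151 from 2.0 to 2.58, Cd37 from -1.39 to -1.08, Tspan33 from -2.03 to -1.53 and Tspan9 from 2.16 to 3.17 in log2 fold change. Other tetraspanins called lower ran from 2 to 4 and partners called lower from 1 to 9. Median log2 fold changes ran from 7.6 to 8.73 for MSC, 3.44 to 4.15 for macrophage, -1.97 to -0.55 for erythroid and -3.20 to -2.10 for T and NK cell markers. The highest counts of calls came without coculture replicate 3, which raised the share of all genes called from 20.5% to 36.0%. DESeq2 gave -1.81 for Tspan33, now called, and called 26.6% of genes. DESeq2 also called 8 partners lower. Scaling by library size only left 1 other tetraspanin and 3 partners lower, and scaling to MK and platelet markers left 3 partners lower. Without the filter the MSC median was 6.87. With exon union lengths the share of Cd63, Cd9 and Cd53 in MKs alone was 89.7%, and over left-out libraries the share ran from 87.1 to 88.3% in MKs alone and from 83.1 to 85.7% in cocultures. The median of all genes was 0.034, and 0.13 when scaled to MK and platelet markers. Among values of the called tetraspanins and partners outside the 10, 112 kept direction and call with a library left out and 32 lost the call, and under other alternatives 134 kept both and 9 lost the call. Of those not called, DESeq2 called Ptgfrn higher and Tspan8, Cr2, Itga6 and Itgb3 lower, and leaving out coculture replicate 3 called Ptgfrn, Selp and Tspan12 higher and Clec7a, Cr2, Gp6, Prkcb, Tspan2 and Tspan8 lower. The causes were not tested. Genes near 1 CPM rest on a few counts, which limits Tspan9 and Tspan33.

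The labels do not say whether replicate numbers shared by the groups are pairs, and the main fit did not take them as pairs. Deviations of same-numbered libraries correlated at 0.020 to 0.37 over 4 pairs, and 4 of 8 libraries correlated best with their own number. These values do not settle whether the libraries were paired. As a block in edgeR the replicate numbers left 14.2% of genes called, 9.35% higher and 4.89% lower. They shifted the median of all genes to -0.14 (-0.17 in DESeq2). Members called higher were then 1, and Cd151 (1.88) and Tspan32 (-2.38) lost their call, as did Itga7, Itga4, Ifitm1 and Ptprc. Partners called lower were 2 with the replicate block in edgeR and 9 in DESeq2, where Tspan33 (-1.89) and Tspan9 (2.35) were called. The share of all genes called was worked out only for the main fit, DESeq2, edgeR's block and the fit without coculture replicate 3. Counts of calls under the other settings, DESeq2 with the block included, therefore have no background share. The erythroid median was -1.32 and -1.37, and that of T and NK cells -3.39 and -3.67.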
